A study of Mus musculus with 18 samples.

Results

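Acetylation of histone H3 on lysines 9 and 14 (H3K9/14ac) was compared by chromatin immunoprecipitation sequencing between the cerebella of Chd4 conditional knockout (cKO) and wild-type (WT) mice at postnatal day 22 (P22). The promoters described are those with a score in all 4 libraries, 2 cKO and 2 WT, which was true of 23 of the 24 genes in the authors' gene table. Only Nt5dc2, which has no cKO value there, was left out. The study's 18 libraries also cover H3K4me3 and H3K27ac at P22, WT cerebella at postnatal day 6 (P6) and inputs, and the inputs were not analysed here. The control group is given as WT, with no allele or age other than P22, and the knockout group as Chd4 cKO at the same age. All 4 libraries were made with the same H3K9/14ac antibody and antibody lot. The labels do not name the Cre line or the cells in which Chd4 was deleted, and they do not say whether each library came from 1 animal or a pool. A p-value therefore reflects how much these libraries vary, and that spread may be technical. None of the 29 marker genes of cerebellar cell types and none of the 14 genes of the NuRD complex that were looked up are in the table, so neither the tissue nor the genotype label was checked here. The labels do not say how the 24 genes were chosen. Counts over them are therefore no genome-wide shares, and a choice made on these very libraries would fix their direction.

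CHD4 uses ATP to move nucleosomes and is a core subunit of NuRD, a complex that also holds histone deacetylases. Acetylated lysines of the H3 tail are found at the promoters of active genes, mostly on the nucleosomes just after the transcription start site (TSS), and deacetylases remove the acetyl groups. In the postnatal cerebellum, granule neurons leave the cell cycle, migrate inward and form synapses during these weeks.

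Promoter sequences help to see how unlike the genes of the table are. Of the 21 promoters described one by one, 13 have an entry in the RefSeq promoter table (build GRCm38.p6), and Ripk4, clcf, Smoc1, Arc, Cpne6, Cpne7, Gnb3 and Scn3b have none. Of the 13, 9 have a single start on the strand given in the gene table: Nhlh1, Cda, Casq1, As3mt, Syde1, Cplx3, Timp2, Duox2 and Hmcn2. The gene table's own positions are in mm9, so the start used by the authors was not matched base by base. The 250 bases before the start are shown for 5 of them, 5′ to 3′ on the gene's strand, because they span the range of changes described next: Nhlh1 and Cda changed most, Casq1 changed from a low level, and Timp2 and Hmcn2 missed the threshold of the test. Capitals mark CG dinucleotides, the sites of DNA methylation, which are dense in CpG island promoters. The stretches are chr1:172057597-172057846 (minus strand) for Nhlh1, chr4:138367956-138368205 (minus) for Cda, chr1:172219896-172220145 (minus) for Casq1, chr11:118355412-118355661 (minus) for Timp2 and chr2:31314082-31314331 (plus) for Hmcn2.
Nhlh1: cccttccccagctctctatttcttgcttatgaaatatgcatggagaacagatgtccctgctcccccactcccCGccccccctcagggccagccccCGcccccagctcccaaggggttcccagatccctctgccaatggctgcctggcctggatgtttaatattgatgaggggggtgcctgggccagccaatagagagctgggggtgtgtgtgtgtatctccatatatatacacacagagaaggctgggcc
Cda: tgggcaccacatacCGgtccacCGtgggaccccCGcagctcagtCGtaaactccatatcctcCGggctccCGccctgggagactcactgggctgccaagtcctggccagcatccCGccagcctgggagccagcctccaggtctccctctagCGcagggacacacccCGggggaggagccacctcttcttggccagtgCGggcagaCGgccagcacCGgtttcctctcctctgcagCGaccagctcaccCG
Casq1: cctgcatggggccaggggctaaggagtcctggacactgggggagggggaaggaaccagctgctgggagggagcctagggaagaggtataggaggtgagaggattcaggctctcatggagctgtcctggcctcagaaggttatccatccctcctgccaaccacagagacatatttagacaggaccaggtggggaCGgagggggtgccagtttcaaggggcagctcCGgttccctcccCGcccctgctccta
Timp2: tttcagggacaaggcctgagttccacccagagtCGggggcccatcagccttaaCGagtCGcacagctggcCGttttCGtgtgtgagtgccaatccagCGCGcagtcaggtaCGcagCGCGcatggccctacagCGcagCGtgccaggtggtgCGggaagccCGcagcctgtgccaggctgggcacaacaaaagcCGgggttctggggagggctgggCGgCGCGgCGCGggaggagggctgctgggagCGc
Hmcn2: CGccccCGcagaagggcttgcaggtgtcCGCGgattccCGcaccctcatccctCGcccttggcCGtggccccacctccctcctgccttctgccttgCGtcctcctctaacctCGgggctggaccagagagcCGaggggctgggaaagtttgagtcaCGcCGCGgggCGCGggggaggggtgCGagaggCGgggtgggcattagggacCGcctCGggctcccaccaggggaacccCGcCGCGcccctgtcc
Nhlh1 has 2 CG dinucleotides in these 250 bases, Casq1 3, Cda 14, Timp2 21 and Hmcn2 22. In the full windows of 300 bases, which run to 50 bases after the start, the counts are 2 for Nhlh1, 4 for Casq1, 9 for As3mt, 10 for Duox2, 11 for Cplx3, 18 each for Cda and Syde1, 25 for Timp2 and 26 for Hmcn2. Over all 32851 RefSeq windows the median is 7, and 14.1% of windows have fewer than Nhlh1 and 83.1% fewer than Hmcn2. The promoter that changed most of the 9 is thus the poorest in CG and the one that changed least the richest, while Cda, second in change, lies in between. The other promoters do not keep to that order. Syde1 has as many CG as Cda but a log2 change of 0.95 against 2.04. Duox2, with 10, missed the threshold at 0.43, while As3mt, with 9, changed by 1.51. This is a description of 9 promoters. The TATA-like motif TATAAA and the cyclic AMP response element TGACGTCA, each searched on both strands, are in none of the 9 windows, against 13.6% and 1.79% of all windows. The E-box CANNTG, which reads the same on both strands and is the motif of basic helix-loop-helix factors, is in 6 of the 9 (Nhlh1, Casq1, Hmcn2, Cplx3, Timp2 and As3mt) and in 72.3% of all windows.

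H3K9/14ac scores were higher in the cKO at nearly every promoter of the table. The lower cKO library exceeded the higher WT library at 22 of 23 promoters (95.7%), and Mslnl was the exception. By limma on log2(score + 2), with Benjamini-Hochberg adjustment, 18 of the 22 promoters tested rose (81.8%) and 0 fell (0 also at an unadjusted p under 0.05). These shares are the background of the table itself, since its genes are the ones described. Casq1 and Cplx3, 2 of the 18, passed the filter on low scores through their cKO libraries alone. The median change of the 22 was 0.95 on the log2 scale, from 0.19 at Hmcn2 to 2.58 at Nhlh1. Chromatin came from whole cerebella, so a change of acetylation within cells and a change in the share of cells that carry it cannot be told apart. The score is the authors' own unit, of unstated scaling and depth. In these libraries its lowest and highest values were 0.07 and 6.48 in WT replicate 1, 0.16 and 10.19 in WT replicate 2, 0.31 and 14.12 in cKO replicate 1, and 0.06 and 23.64 in cKO replicate 2.

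**Figure D1:**
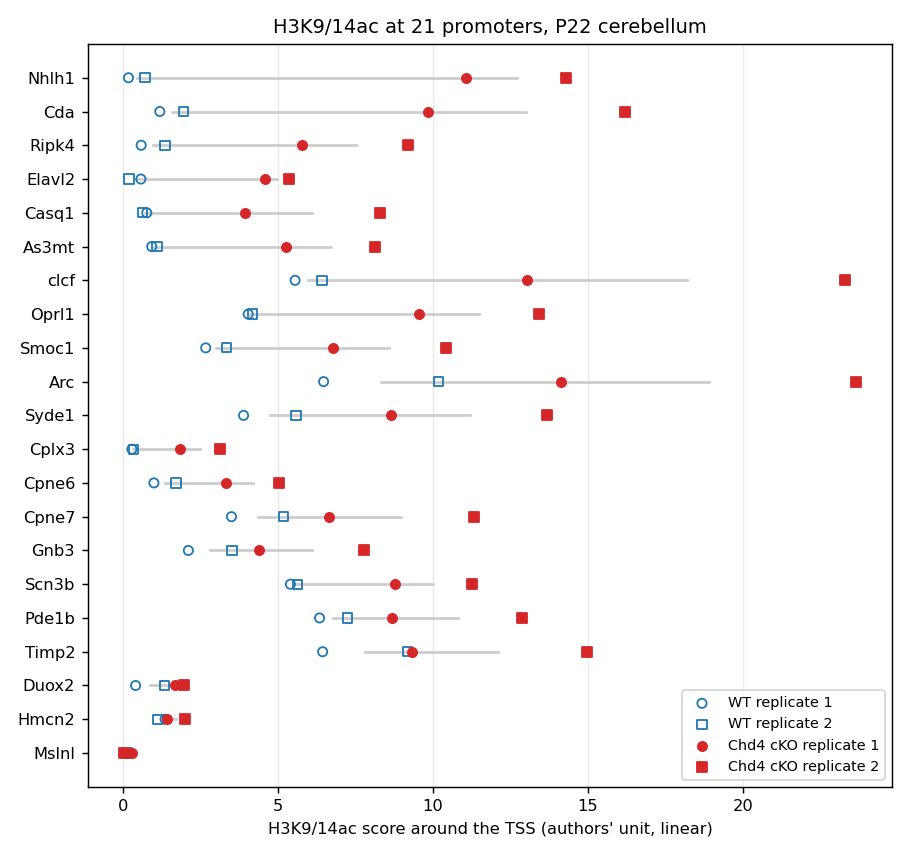
H3K9/14ac score around the TSS (x axis, authors' linear unit) in each of the 4 P22 libraries for the 21 promoters described one by one (y axis, ordered by log2 change); open blue marks are WT, filled red marks cKO, circles replicate 1, squares replicate 2, and grey lines join the group means. Red marks lie to the right of blue marks at all promoters shown except Mslnl, which stays between 0.06 and 0.31.

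Both regulators of neuronal differentiation in the table rose, against 18 of the 22 promoters tested (81.8%). Their median log2 change was 2.06, against 0.95 over all tested. Nhlh1 encodes a basic helix-loop-helix transcription factor of newly postmitotic neurons (table position chromosome 1, 173987694, mm9). Its H3K9/14ac score was 0.19 and 0.72 in the WT libraries and 11.08 and 14.31 in the cKO libraries. The groups were separated by 10.36, the widest gap of the table, and the log2 change was 2.58 ± 0.28 (SE, limma adjusted p = 3.4e-12). Elavl2 encodes a neuronal RNA-binding protein of the Hu family (chromosome 4, 91066675). It scored 0.59 and 0.21 in WT and 4.59 and 5.37 in the cKO, a smaller gap of 4.00 from an equally low WT level (log2 change 1.54, limma adjusted p = 3.5e-06). These p-values pool the spread over promoters. With each promoter's own spread in the same linear fit, the adjusted p was 0.0133 at both genes. After the median of each library was subtracted from its log2 values (centring), both stayed above 0, and Nhlh1 alone of the pair was still called higher. Centring sets the median of each library over these promoters to 0 by construction. A centred change is therefore relative to the other promoters of the table, and a promoter called lower may still have a higher score in the cKO. Over all 22 promoters tested, centring left 15 below 0, with 3 called higher (13.6%) and 7 lower (31.8%).

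Both genes of small-molecule metabolism rose, against 18 of the 22 promoters tested (81.8%). Their median change was 1.77, against 0.95 over all tested. Cda encodes cytidine deaminase of the pyrimidine salvage pathway (chromosome 4, 137923870). Its scores were 1.20 and 1.96 in WT and 9.83 and 16.19 in the cKO, with a log2 change of 2.04 ± 0.28 (SE, limma adjusted p = 5.1e-09). As3mt encodes the methyltransferase that methylates arsenite (chromosome 19, 46781933). It was at 0.94 and 1.11 in WT and at 5.28 and 8.13 in the cKO, a log2 change of 1.51 (limma adjusted p = 4.0e-06). Replicates of WT thus differed by less than 1 score unit at both promoters, and the lowest cKO value was 7.87 above the highest WT value at Cda and 4.17 above it at As3mt. With centred libraries both lay above 0 and Cda was called, against 7 above 0 and 3 called higher among the 22 tested.

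The pair of genes best known from muscle and photoreceptors was among the 18 of 22 promoters tested that rose (81.8%). Casq1 encodes the calsequestrin of skeletal muscle calcium stores (chromosome 1, 174149970). It scored 0.78 and 0.65 in WT and 3.95 and 8.30 in the cKO, so the cKO replicates differed from each other by more than the lower of them differed from WT (log2 change 1.53, limma adjusted p = 3.5e-06). Casq1 passed the filter on low scores through its cKO libraries alone, as did Cplx3, so these 2 could enter the test only by being high in the cKO. Gnb3 encodes the G protein beta subunit of cone photoreceptors (chromosome 6, 124790293). Its scores of 2.12 and 3.53 in WT and 4.41 and 7.78 in the cKO were 0.88 apart at their nearest (log2 change 0.73, limma adjusted p = 0.0158). With centred libraries Gnb3 was called lower, at -0.41, as were 7 of the 22 tested with Gnb3 included (31.8%). Gnb3 also missed the threshold without WT replicate 1 or cKO replicate 2, with log2 changes of 0.52 and 0.43.

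Of the 3 genes best known from epithelia, Ripk4 rose, Duox2 missed the threshold and Mslnl was not tested. Ripk4 encodes a kinase of keratinocyte differentiation (chromosome 16, 97985362). It went from 0.60 and 1.37 in WT to 5.80 and 9.21 in the cKO, which is the largest log2 change after Nhlh1 and Cda, 1.66 (limma adjusted p = 9.1e-07). Duox2, an oxidase gene that makes hydrogen peroxide in the thyroid, scored 0.42 and 1.36 in WT and 1.70 and 1.97 in the cKO. Its groups did not overlap, but they were 0.34 apart, less than the WT replicates from each other, and the log2 difference of 0.43 gave limma adjusted p = 0.140. The mesothelin-like gene Mslnl was at 0.07 and 0.16 in WT and at 0.31 and 0.06 in the cKO, the lowest scores of the table. With centred libraries Ripk4 was called higher and Duox2 lower, at -0.72.

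Among 8 genes of synapses, signalling and excitability, 7 rose as deposited, a share near the 81.8% of all promoters tested. The median change of the 8 was 0.91, near that of all promoters tested. With each library centred on its median, all 8 lay below 0, against 15 of 22 in the table. After centring 3 were called lower (Cpne7, Scn3b and Pde1b), a share near the 31.8% of the table. Oprl1, the nociceptin receptor gene (chromosome 2, 181449749), scored 4.05 and 4.18 in WT and 9.57 and 13.42 in the cKO. Its groups stood 5.39 apart, the widest gap of this group, with a log2 change of 1.13 (limma adjusted p = 4.2e-04). Arc, the immediate early gene whose protein acts in the endocytosis of glutamate receptors (chromosome 15, 74503000), had the highest score of the table in each of the 4 libraries. It was at 6.48 and 10.19 in WT and at 14.12 and 23.64 in the cKO, a log2 change of 1.00 (limma adjusted p = 0.00151). Syde1, which encodes a GTPase-activating protein, scored 3.90 and 5.59 in WT and 8.66 and 13.68 in the cKO (log2 change 0.95, limma adjusted p = 0.00240). Cplx3, a complexin gene whose product binds the vesicle fusion machinery, was low in WT, at 0.30 and 0.34, and reached 1.85 and 3.15 in the cKO (log2 change 0.94, limma adjusted p = 0.00244). Cplx3 entered the test only by being high in the cKO, so its call is no independent support. The copines are calcium-dependent phospholipid-binding proteins, and both copine genes rose, Cpne6 by 0.87 and Cpne7 by 0.77. Scn3b, an auxiliary sodium channel subunit gene, had the smallest change that passed: 5.41 and 5.64 in WT against 8.77 and 11.25 in the cKO (log2 change 0.67, limma adjusted p = 0.0250). On the other side of the threshold was Pde1b, a calmodulin-dependent phosphodiesterase gene, with 6.35 and 7.24 in WT and 8.69 and 12.89 in the cKO (0.52, limma adjusted p = 0.0780). Of the 7 that rose, 2 did so without WT replicate 1, namely Oprl1 and Cplx3, but Cplx3 missed the threshold with a pseudocount of 20 (limma adjusted p = 0.0690) and without log (limma adjusted p = 0.0898). The changes of Arc, Syde1, Cpne6, Cpne7 and Scn3b were then 0.74, 0.77, 0.72, 0.58 and 0.64, with limma adjusted p from 0.0685 to 0.158. Without cKO replicate 2 Cpne7 and Scn3b missed the threshold, at 0.46 and 0.52, and without WT replicate 2 Scn3b missed it, at 0.69.

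Of 4 promoters of secreted and matrix genes, 2 rose as deposited, against 18 of the 22 tested. After centring 3 of the 4 lay below 0, against 15 of 22 in the table. Called lower were 2 (Timp2 at -0.63 and Hmcn2 at -0.95), against 7 of 22. The promoter listed as clcf (chromosome 19, 4214392) scored 5.56 and 6.43 in WT and 13.05 and 23.29 in the cKO. In score units it gained 12.2, as much as Nhlh1, but on the log2 scale 1.29 (limma adjusted p = 6.2e-05), and it missed the threshold with its own spread taken alone (adjusted p = 0.0737). Smoc1, whose product is a calcium-binding protein of basement membranes, was at 2.68 and 3.35 in WT and at 6.77 and 10.42 in the cKO (log2 change 1.06, limma adjusted p = 8.3e-04). Timp2, an inhibitor of matrix metalloproteinases, scored 6.45 and 9.18 in WT and 9.32 and 14.96 in the cKO. Its nearest values, 9.18 and 9.32, came within 0.14 of each other, and the difference of 0.51 gave limma adjusted p = 0.0804. The hemicentin gene Hmcn2 scored 1.37 and 1.14 in WT and 1.44 and 2.01 in the cKO (0.19, limma adjusted p = 0.498). Without cKO replicate 1 Timp2 and Pde1b did pass, with changes of 0.80 and 0.76. The 2 promoters not described one by one both rose, and neither passed without WT replicate 1.

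**Figure D2:**
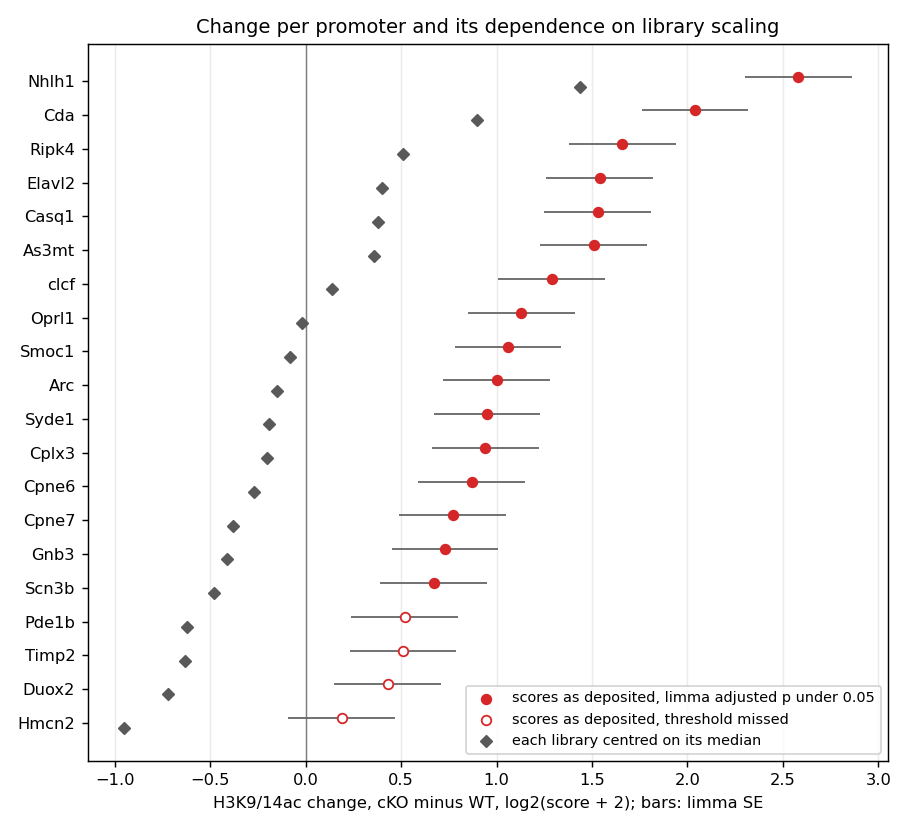
Change of H3K9/14ac per promoter (x axis, cKO minus WT on the log2(score + 2) scale) for the 20 tested promoters described one by one, with bars of 1 SE of 0.28; filled red circles passed limma's adjusted threshold, open circles missed it, and grey diamonds are the same changes after each library was centred on its median. The circles run from 0.19 to 2.58, all above 0, whereas the diamonds run from -0.95 at Hmcn2 to above 0 at 7 promoters.

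The gains were not proportional to the level in WT. At the 7 promoters with a mean WT score under 1, the cKO mean exceeded the WT mean by 0.07 to 12.2 score units, with a median of 4.58. At the 10 with a mean WT score of 4 or more the gain was 3.50 to 12.2, with a median of 5.11. Of the 7 low promoters, 4 had a cKO mean above 4 (Nhlh1, Ripk4, Casq1 and Elavl2), while Cplx3, Duox2 and Mslnl did not. Of all 23 promoters, 4 had a cKO mean under 4, so most of the table exceeded that level and reaching it is not particular to the low promoters. The number of promoters with a mean score under 1 was 7 in WT and 1 in the cKO.

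The order of promoters within a library does not depend on how a library is shifted or scaled as a whole. Nhlh1 ranked 22nd and 19th of 23 in the WT libraries and 3rd and 5th in the cKO libraries. Cda moved from ranks 14 and 13 to 4 and 3, and Ripk4 from 18 and 15 to 14 and 13. Arc was first and Mslnl last in all 4 libraries. Several promoters ranked lower in the cKO although their scores were higher there. Pde1b went from rank 3 in both WT libraries to rank 8 in both cKO libraries. Gnb3 went from 12 and 11 to 17 and 17, Cpne6 from 15 and 14 to 19 and 19, and Hmcn2 from 13 and 17 to 22 and 21. With 2 libraries against 2, no exact test of a rank can give less than p = 0.33.

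**Figure D3:**
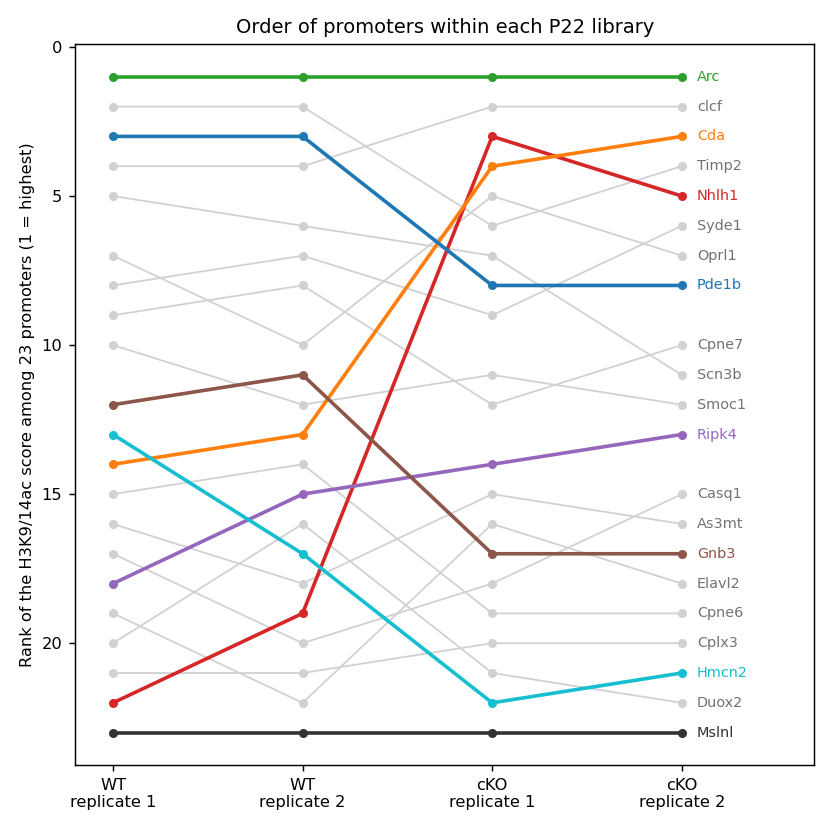
Rank of each promoter's H3K9/14ac score (y axis, 1 is the highest of 23) in the 4 P22 libraries (x axis) for the 21 promoters described one by one; coloured lines mark Nhlh1, Cda, Ripk4, Arc, Pde1b, Gnb3, Hmcn2 and Mslnl, and grey lines the others. Nhlh1 climbs from ranks 22 and 19 to 3 and 5, and Pde1b drops from 3 to 8.

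Replicates also differed in a way that most promoters shared. WT replicate 2 was above replicate 1 at 20 of 23 promoters, with a median log2 difference of 0.25, and cKO replicate 2 above replicate 1 at 22 of 23, by 0.48. The mean score over the 23 promoters was 2.62 and 3.56 in the WT libraries and 6.68 and 10.3 in the cKO libraries. The groups did not overlap, the difference was 5.40 score units, and the exact two-sided permutation test gave p = 0.33, the smallest value that this design allows. Limma treats promoters as independent, so its p-values do not take such shifts into account. Centring each library on its median moved the median change from 0.95 to -0.20 and the split from 18 higher and 0 lower to 3 higher (Nhlh1, Cda and Ripk4) and 7 lower. Centring removes any common change by construction, so this shows only which promoters changed more or less than the rest of the table. Whether the common difference between the groups lies in the chromatin or in the scaling of the libraries was not tested. Calls fell to 10 without WT replicate 1 and to 11 with the spread of each promoter taken alone, which lost clcf, Arc, Syde1, Cpne7 and Gnb3 among the promoters described one by one. Nhlh1, Cda and Ripk4 were called higher in each of the 15 alternative fits, and Elavl2, Casq1, As3mt, Oprl1 and Smoc1 in all of them but the centred one. Casq1 entered all of these fits but the unfiltered one only by being high in the cKO.

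For comparison with the immature cerebellum, both cKO libraries at P22 lay above both WT libraries at P6 at 20 of 23 promoters and below both at 0. The exceptions were Nhlh1, Timp2 and Mslnl. The median score over the 23 promoters was 1.91 and 2.19 in the P6 libraries and 6.64 and 10.42 in the cKO libraries. These are scores as deposited, of unstated scaling, and whether a single promoter differed beyond this common difference was not tested. At P6 Nhlh1 scored 12.03 and 10.60, within reach of its 11.08 and 14.31 in the cKO and far above its 0.19 and 0.72 in WT at P22. Elavl2 scored 1.80 and 2.18 at P6, below its 4.59 and 5.37 in the cKO. Cda was at 1.34 and 0.66 at P6, near its WT level at P22.

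The other marks at the same promoters give a measure of how particular the H3K9/14ac changes are. The difference between the cKO change of H3K9/14ac and that of H3K27ac passed the test at 0 of 22 promoters (limma interaction, Benjamini-Hochberg adjusted, lowest adjusted p = 0.995, 0 at an unadjusted p under 0.05), with an SE of 0.38 per promoter. Against H3K4me3 it passed at 0 of 22 (lowest adjusted p = 0.169, 1 at an unadjusted p under 0.05), with an SE of 0.52. With errors of this size, equal changes in the marks are not shown. The 1 promoter was Nhlh1, where H3K4me3 was -0.06 and -0.50 in WT and 19.67 and 32.39 in the cKO. Its change of H3K9/14ac minus that of H3K4me3 was -1.42 ± 0.52 (SE), with limma adjusted p = 0.169. It was called with a pseudocount of 1 in place of 2, together with Hmcn2, and with the replicate number as a block. At Hmcn2 all H3K4me3 scores were below 0 (-0.10 and -0.50 in WT, -0.74 and -0.82 in the cKO), where a pseudocount of 1 stretches the log2 scale. With a pseudocount of 2 its difference was 0.66 ± 0.52 (SE, limma interaction adjusted p = 0.949). Some promoters, such as Gnb3 and Casq1, rose in H3K9/14ac while their H3K4me3 scores stayed low, although these too were higher in both cKO libraries. At Gnb3 H3K4me3 was -0.52 and -0.38 in WT and -0.09 and 0.47 in the cKO, while H3K27ac was 3.52 and 3.01 in WT and 10.21 and 13.02 in the cKO. At Casq1 H3K4me3 was -0.30 and -0.46 in WT and 0.31 and 1.65 in the cKO. H3K4me3 thus stayed under 2 in each library at both promoters, while their H3K9/14ac in the cKO was at 3.95 or more. In WT the H3K9/14ac of Casq1 was itself low, at 0.78 and 0.65. The scaling of the scores is not stated, so the sizes of scores of different marks cannot be compared. The change of H3K9/14ac minus that of H3K4me3 was 0.24 ± 0.52 (SE) at Gnb3 and 0.68 ± 0.52 at Casq1. Neither passed the test (limma interaction, adjusted p = 0.949 at both), so a difference between these marks is not shown there. At Gnb3 the change of H3K9/14ac minus that of H3K27ac was -0.63 ± 0.38 (SE), with limma adjusted p = 0.995, and it was the 1 promoter called against H3K27ac with centred libraries.

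The authors' mean curves show at which distances from the TSS the genotypes differed. They give the mean H3K9/14ac score at 10001 positions from -5000 to 5000 bp for each genotype, and the genes averaged are not named in the file headers. The header names the error column a standard error. Its values, however, fall on the grid that the SD of a pair of values with 3 decimals can take, within 0.001 grid steps, at 100% of positions in both genotypes. It was therefore read as an SD, from which the 2 library values at each position follow, without telling which library is which. On that reading the cKO mean lay above the WT mean at 10001 of 10001 positions, and the 2 cKO values above the 2 WT values at 9902 (99.0%). The 99 positions where they overlapped were all upstream, between -5000 and -3600 bp. By the stricter rule that the means differ by more than the sum of both errors, 9330 positions were apart (93.3%), including an unbroken run from -2639 to 3878 bp. Neighbouring positions share reads and there are 2 libraries a group, so no test is made of these counts.

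**Figure D4:**
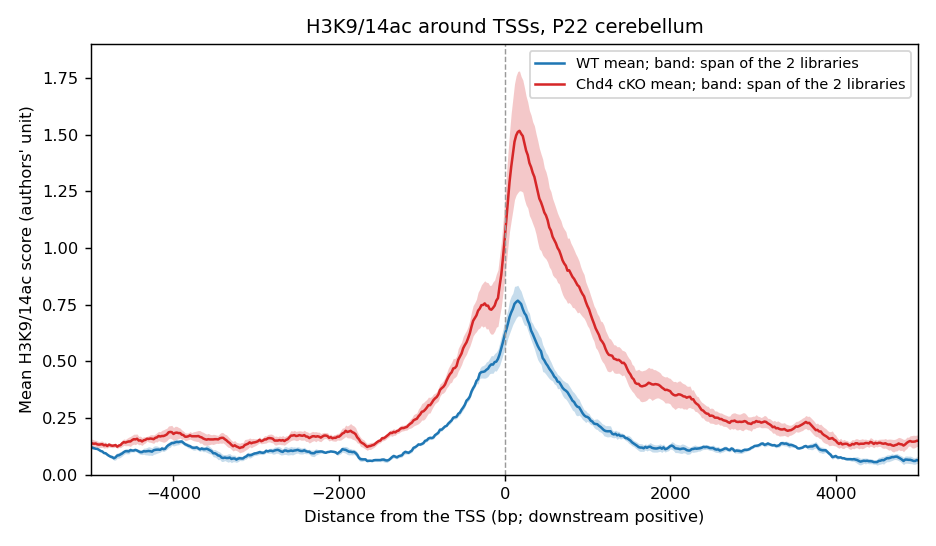
Mean H3K9/14ac score (y axis, authors' unit) against distance from the TSS (x axis, bp) in WT (blue) and cKO (red) at P22; lines are the authors' means and bands span the 2 library values implied by the error column. The cKO band lies above the WT band at every position downstream of -3600 bp.

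The difference was largest 215 bp downstream of the TSS. There the WT libraries were at 0.680 and 0.794 and the cKO libraries at 1.26 and 1.75, a difference in means of 0.768. Between -93 and 975 bp the cKO mean curve was at or above the maximum of the WT mean curve, 0.770, at 1067 of 1069 positions. The higher WT library value at that maximum, 158 bp downstream, was 0.838. Of the difference summed over all positions, 72.1% lay downstream of the TSS and 27.9% upstream. In WT the split of the signal itself was 57.4% downstream and 42.5% upstream. The stretch from 1000 to 3000 bp downstream held 27.8% of the summed difference and 16.2% of the WT signal, and the same stretch upstream 8.84% and 11.2%. In the windows of 500 bp on each side of the TSS, the mean went from 0.445 ± 0.040 in WT to 0.730 ± 0.13 in cKO upstream, and from 0.657 ± 0.082 to 1.34 ± 0.33 downstream (± the authors' error averaged over positions).

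The ratio of the curves had another shape than the difference. Within 500 bp of the TSS it was lowest at -126 bp, at 1.48, where the WT libraries were at 0.456 and 0.534 and the cKO libraries at 0.620 and 0.846. It was 2.33 at 500 bp and 2.92 at 1000 bp downstream, and highest at 1843 bp, at 3.54. At that position the WT libraries were at 0.098 and 0.130 and the cKO libraries at 0.341 and 0.465. Beyond it the ratio was 2.21 at 2500 bp and 1.89 at 3000 bp. Upstream it had a lower maximum of 2.85 at -1391 bp, on a WT mean of 0.065. In the outermost 1000 bp it was 1.43 upstream and 2.05 downstream, and over the whole curve the lowest ratio was 1.12, at -4968 bp. Since the zero of the score is not stated, the size of such ratios is uncertain. With the mean of the outermost 1000 bp on both sides subtracted from each curve, the ratio was 1.44 at -126 bp, 2.47 at 500 bp, 3.56 at 1000 bp and 9.25 at 1843 bp, where the WT mean was then 0.028 with an error of 0.023. The low ratio at -126 bp and the rise downstream were thus present on both scales, but the size of the ratio at 1843 bp was not stable.

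**Figure D5:**
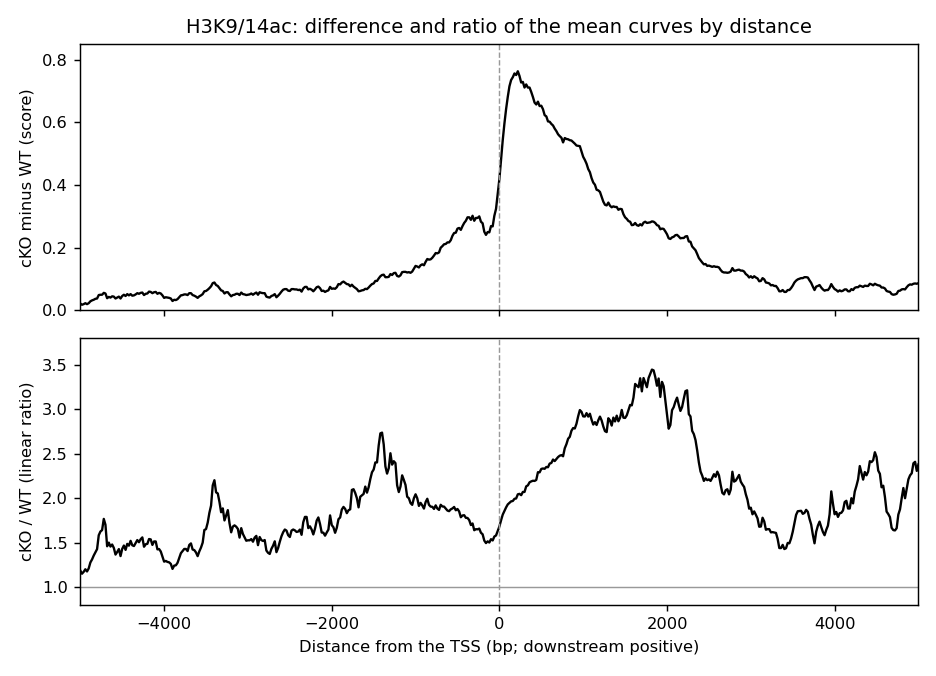
Difference (upper panel, cKO minus WT in score units) and ratio (lower panel, cKO over WT, linear, grey line at 1) of the mean H3K9/14ac curves against distance from the TSS (x axis, bp). The difference peaks at 0.768 at 215 bp, while the ratio is 1.48 at -126 bp, its lowest within 500 bp of the TSS, and peaks at 3.54 at 1843 bp.

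The cKO curve was wider on its downstream side. In WT the stretch above 25% of the maximum ran from -791 to 1205 bp, and in the cKO from -770 to 1919 bp, so the upstream edges were 21 bp apart and the downstream edges 714 bp. With the outer level subtracted the stretches were -577 to 990 bp and -572 to 1446 bp. At 50% of the maximum the widths were 1070 bp in WT and 1086 bp in the cKO, but the stretch lay at -376 to 694 bp in WT and at -103 to 983 bp in the cKO. The upstream edge in the cKO depends on a shoulder at -241 bp, where the mean was 0.757 and thus just under 50% of the maximum, 0.761. Between this shoulder and the TSS the cKO curve dipped to 0.726 at -159 bp, and the WT curve had no such local maximum upstream. The dip is smaller than the error of 0.15 at that position.

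Relative to its own largest difference, H3K9/14ac gained less just upstream of the TSS than H3K27ac and more than H3K4me3. Over the 500 bp upstream the mean difference was 37.1% of the largest one for H3K9/14ac, 53.5% for H3K27ac and 7.12% for H3K4me3. From 1000 to 2000 bp downstream it was 42.0%, 46.0% and 21.1%. The curves do not tell which library is which, and these differences between marks were not tested.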

How the data were processed

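Chromatin from cross-linked, sonicated cerebella was immunoprecipitated and sequenced on an Illumina HiSeq 2000, per the labels' protocols. The submitters' processing notes list BWA, without a version, and mm9. The values used are the authors' deposited score per gene and library, with 2 decimals, and their deposited mean score by distance from the TSS. The counting of reads, any subtraction and the scaling between libraries are not stated in labels or headers. A score is no read count, so depth is unknown and no counting interval was computed. Columns that carry no age were taken as P22, because P6 is spelled out in the others.

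All 6 H3K9/14ac libraries (WT P6, WT P22 and cKO P22) entered 1 limma fit (limma 3.58.1, R 4.3.3) of log2(score + 2) without covariates, on promoters with a score of at least 1 in at least 2 of them, with Benjamini-Hochberg adjustment and a threshold of 0.05. The prior degrees of freedom were infinite, so each promoter has the same SE. The p-values rest on 68 degrees of freedom pooled over promoters, far more than the libraries of a single promoter give. With each promoter's own spread in the same linear fit, the adjusted p was 0.0133 at Nhlh1 and 0.0312 at Cda and at Ripk4. Differences between marks were the interaction term of a fit on the 8 P22 libraries of both marks. The fit was run on simulated scores with independent noise, a few raised promoters and no shift shared within a library. That setting differs from these libraries, so it is no check of the p-values given here. Gene names were used as listed (20 of 21 matched a RefSeq symbol, clcf did not). Members, gene groups, pseudocount and filter were chosen with earlier results of these data known. The rule for naming was all promoters of the table, with full values for the 10 largest changes and those nearest the threshold. The values of 2 promoters are not reported here one by one, although they stayed in the fits and counts. Alternatives were pseudocounts of 1 and 20, no filter, the 4 P22 libraries alone, the replicate number as a block, scores without log, libraries centred on their median, each promoter's own spread and each library left out. Curves were summarised with numpy 2.4.6 and pandas 2.3.3 (Python 3.11.15) and drawn with matplotlib 3.10.9.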

Additional observations from a re-analysis of the deposited data

How the results depend on the processing

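The count of promoters called higher, 18 in the fit as described, was 10 to 20 when single libraries were left out, 11 with each promoter's own spread and 3 with each library centred on its median. It stayed within 1.5 times of 18 with pseudocounts of 1 and 20, without the filter, without log, with the 4 P22 libraries alone and with the block. The median change was 0.29 with a pseudocount of 20, where the scale is compressed by construction. It was -0.20 with centred libraries, where a common change is removed by construction, and 0.67 to 1.19 with single libraries left out. With centred libraries 13 of the promoters described one by one turned below 0: Hmcn2 -0.95, Duox2 -0.72, Timp2 -0.63, Pde1b -0.62, Scn3b -0.48, Gnb3 -0.41, Cpne7 -0.38, Cpne6 -0.27, Cplx3 -0.20, Syde1 -0.19, Arc -0.15, Smoc1 -0.08 and Oprl1 -0.02. With the replicate number as a block, 21 promoters were called, adding Pde1b, Timp2 and Duox2, and likewise 21 with the block on the 4 P22 libraries alone, an alternative chosen after seeing the data. The labels do not say that the numbers pair libraries. Deviations of same-numbered libraries correlated with 0.16 across promoters, but this measure cannot see a shift that all promoters share. Replicate 2 was above replicate 1 at 20 of 23 promoters in WT and at 22 of 23 in the cKO. Whether the libraries are paired was therefore not settled. For the difference between marks, 2 promoters were called against H3K4me3 with a pseudocount of 1 and 1 with the block, and 1 against H3K27ac with centred libraries. Of the 2, Hmcn2 had H3K4me3 scores below 0 in all P22 libraries. The cause of these changes was not tested. The ratio of the curves near the TSS was 1.88 ± 0.47 within 500 bp and 2.18 ± 0.51 within 2000 bp, against 2.03 ± 0.48 within 1000 bp. With the outer level subtracted it was 2.12 ± 0.61 within 1000 bp. These errors are carried over from the authors' errors averaged over positions. That subtraction, applied to single positions after seeing the data, moved the ratio from 2.92 to 3.56 at 1000 bp, from 3.54 to 9.25 at 1843 bp and from 2.21 to 3.66 at 2500 bp, where it leaves little WT signal. Depth is unknown, so the precision rests on 2 libraries a group.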
